A study of Mus musculus with 16 samples.

Results

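Tbx21, Eomes, Id2, Zeb2, Runx3 and Bhlhe40 encode transcription regulators that act together in the choice of a CD8 T cell between short-lived effector and long-lived memory fates. Members were the genes of these 6 names with a probe set that carries exactly 1 gene symbol, which left 5 genes of the 22180 genes measured in that way. Zeb2 is the member without a value: the 2 probe sets that list it carry a second symbol (Zeb2os or Mir5129) and were not used. Each of the other 5 genes has 1 such probe set, and on all 16 arrays it read higher than the median probe set.

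The 16 samples are CD8 T cells sorted from the spleen of female C56BL/6 mice, in 4 groups of 4: Effector WT, Effector KO, Memory WT and Memory KO. All mice were bone marrow chimeras with WT or Il4i1 KO marrow, and all had received leukaemia cells from Eµ-TCL1 mice, a model of chronic lymphocytic leukaemia (CLL), 5 weeks earlier. No group without leukaemia is among the samples. Il4i1 encodes a secreted amino acid oxidase. The knockout was carried by the marrow graft and the cells derived from it, and the genotype of the hosts' own cells is not stated. Effector cells were sorted as positive for CD44 and negative for CD127, and memory cells as high for both. CD127 is the interleukin-7 receptor chain encoded by Il7r. The labels give no age, and whether replicates came from separate mice is not stated, so p-values measure the spread between these samples, which may be technical. Values are log2 expression on 1-colour arrays, where a difference of 1 is 2-fold. The number of arrays limits the precision.

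Tbx21 encodes T-bet and Eomes encodes eomesodermin, related proteins of the T-box family that bind overlapping sets of target genes, among them genes of interferon gamma and cytotoxic granules. In CD8 T cells T-bet is known for driving effector differentiation, and Eomes for the upkeep of memory cells and for its high level in chronically stimulated, exhausted cells. Id2 blocks E proteins, which bind E-box DNA, and favours effector cells. Runx3 sets the CD8 lineage and the cytotoxic programme. Bhlhe40 is a basic helix-loop-helix repressor induced by activation. Zeb2 is a repressor that works with T-bet in terminal effector cells.

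The labelled cell type was checked first. Of 9 CD8 T cell genes, 8 were measured, and on each of the 16 arrays all 8 read higher than the median, with a mean of 10.74 to 10.98 on each array. The gates use both sort genes, so these are no finding between subsets. Cd44 was at 5.46 to 6.28 in the effector groups and 6.70 to 6.88 in the memory groups. Il7r was at 3.83 to 4.46 in Effector WT, 5.00 to 6.60 in Effector KO, 10.29 to 10.96 in Memory WT and 10.94 to 11.27 in Memory KO. The only probe set that lists Il4i1 is shared by 3 genes (Nup62, Il4i1 and Il4i1b), so the arrays gave no check of the genotype labels from the targeted gene. Array Effector KO 4 correlated least with the others over all genes, with r of 0.965 to 0.974, against 0.971 to 0.994 for the other pairs.

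The upstream regions of Tbx21 and Eomes are shown because these 2 genes differed between the subsets in opposite directions. Sequences are the 250 bases before the transcription start that the RefSeq promoter table uses, in GRCm38.p6, on the strand of the gene. Tbx21 lies on chromosome 11 (97098007 to 97115331, minus strand) and its window is chr11:97115332-97115581. Eomes lies on chromosome 9 (118478186 to 118486132, plus strand) and its window is chr9:118477939-118478188, whose last 3 bases lie within the annotated gene span. Capitals mark matches to any of the 4 motifs searched.
Tbx21: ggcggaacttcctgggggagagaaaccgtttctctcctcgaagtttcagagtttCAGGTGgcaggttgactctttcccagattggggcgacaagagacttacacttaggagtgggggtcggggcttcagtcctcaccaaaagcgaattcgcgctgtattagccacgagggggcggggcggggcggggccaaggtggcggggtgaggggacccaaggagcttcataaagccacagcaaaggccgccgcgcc
Eomes: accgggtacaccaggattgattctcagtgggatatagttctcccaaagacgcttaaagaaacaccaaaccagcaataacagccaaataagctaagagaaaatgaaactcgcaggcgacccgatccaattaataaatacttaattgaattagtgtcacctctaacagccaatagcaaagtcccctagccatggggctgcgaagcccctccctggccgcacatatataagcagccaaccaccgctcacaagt

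The 4 motifs, searched on both strands and not overlapping each other in these windows, were GGTGTGA (a core site of T-box factors), TGTGGT (RUNX proteins), CACCTG (the E-box of ZEB repressors and E proteins) and CACGTG (the E-box of BHLHE40). Of the 5 measured members, 4 have a window in the table. The Tbx21 window held 1 match, to CACCTG, starting at position -196 from the gene start, and the Eomes window held 0 of the 4 motifs. In the window of the first Runx3 start (chr4:135120395-135120644), TGTGGT matched 2 times, at -134 and -126, and CACCTG matched at -233. The window of the second Runx3 start and that of Id2 held 0 matches. Among 32817 windows of this length, 3.33% held GGTGTGA, 14.04% TGTGGT, 17.22% CACCTG and 6.02% CACGTG. A match is a stretch of letters and not a measured binding site.

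Effector and memory cells from the same kind of chimera were compared first, to place the factors in the 2 subsets. Tbx21 was lower in effector than in memory cells, while Eomes read higher in effector cells of both genotypes and passed in KO chimeras. In WT chimeras 2 of the 5 members passed the threshold, an adjusted p under 0.05 in limma over all genes: Tbx21 was lower and Id2 higher in effector cells. Of all genes tested 3.22% passed in this comparison, 0.92% higher and 2.3% lower. In KO chimeras 3 members passed, Tbx21 lower and Eomes and Bhlhe40 higher in effector cells, against 7.43% of all genes (3.14% higher, 4.3% lower). The median difference of the 5 members was 0.33 in WT and 0.27 in KO, and that of all genes was 0.01 in both.

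Tbx21 was at 7.09, 6.76, 6.99 and 6.83 on the Effector WT arrays 1 to 4 and at 8.17, 8.28, 8.17 and 8.12 on the Memory WT arrays 1 to 4. All memory arrays lay above all effector arrays. The difference of -1.27 ± 0.29 (SE, n = 4 and 4) is 2.41-fold and passed (limma, adjusted p = 0.0202). In KO chimeras the Effector KO arrays read 7.94, 7.07, 6.97 and 8.76 and the Memory KO arrays 8.97, 8.68, 8.37 and 9.11. These groups overlapped through Effector KO 4, which lay above 2 of the memory arrays. The KO difference was -1.10 ± 0.29 (limma, adjusted p = 0.027), and -1.45 without Effector KO 4 (adjusted p = 0.000416).

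Both calls of Tbx21 are sensitive to single arrays. The WT call was lost without Effector WT 2, 3 or 4, Memory WT 1 or Memory WT 3, with adjusted p of 0.0501 to 0.066 in limma and differences of -1.29 to -1.22. The KO call was lost without Effector KO 2 (adjusted p = 0.0786), Effector KO 3 (0.0839), Memory KO 1 (0.0657) or Memory KO 4 (0.0914), and in a fit of the KO arrays alone (0.166).

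Eomes, the other T-box gene, was at 10.001, 10.002, 10.055 and 10.098 in Effector WT and at 9.59, 9.76, 9.70 and 9.78 in Memory WT. These groups did not overlap. Its difference of 0.33 ± 0.10 missed the threshold (limma, adjusted p = 0.0722), with a 95% interval of 0.13 to 0.53. In KO chimeras it was at 9.98, 10.12, 10.18 and 9.88 in effector cells and 9.42, 9.57, 9.65 and 9.31 in memory cells. Here Eomes was 1.46-fold higher in effector cells (0.55 ± 0.10, limma, adjusted p = 0.00204), a call that stood in each of the 16 fits that left out 1 array. Whether the effector to memory difference of Eomes itself differs between KO and WT was tested as a difference of differences (0.22 ± 0.13, limma, adjusted p = 0.856).

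**Figure D1:**
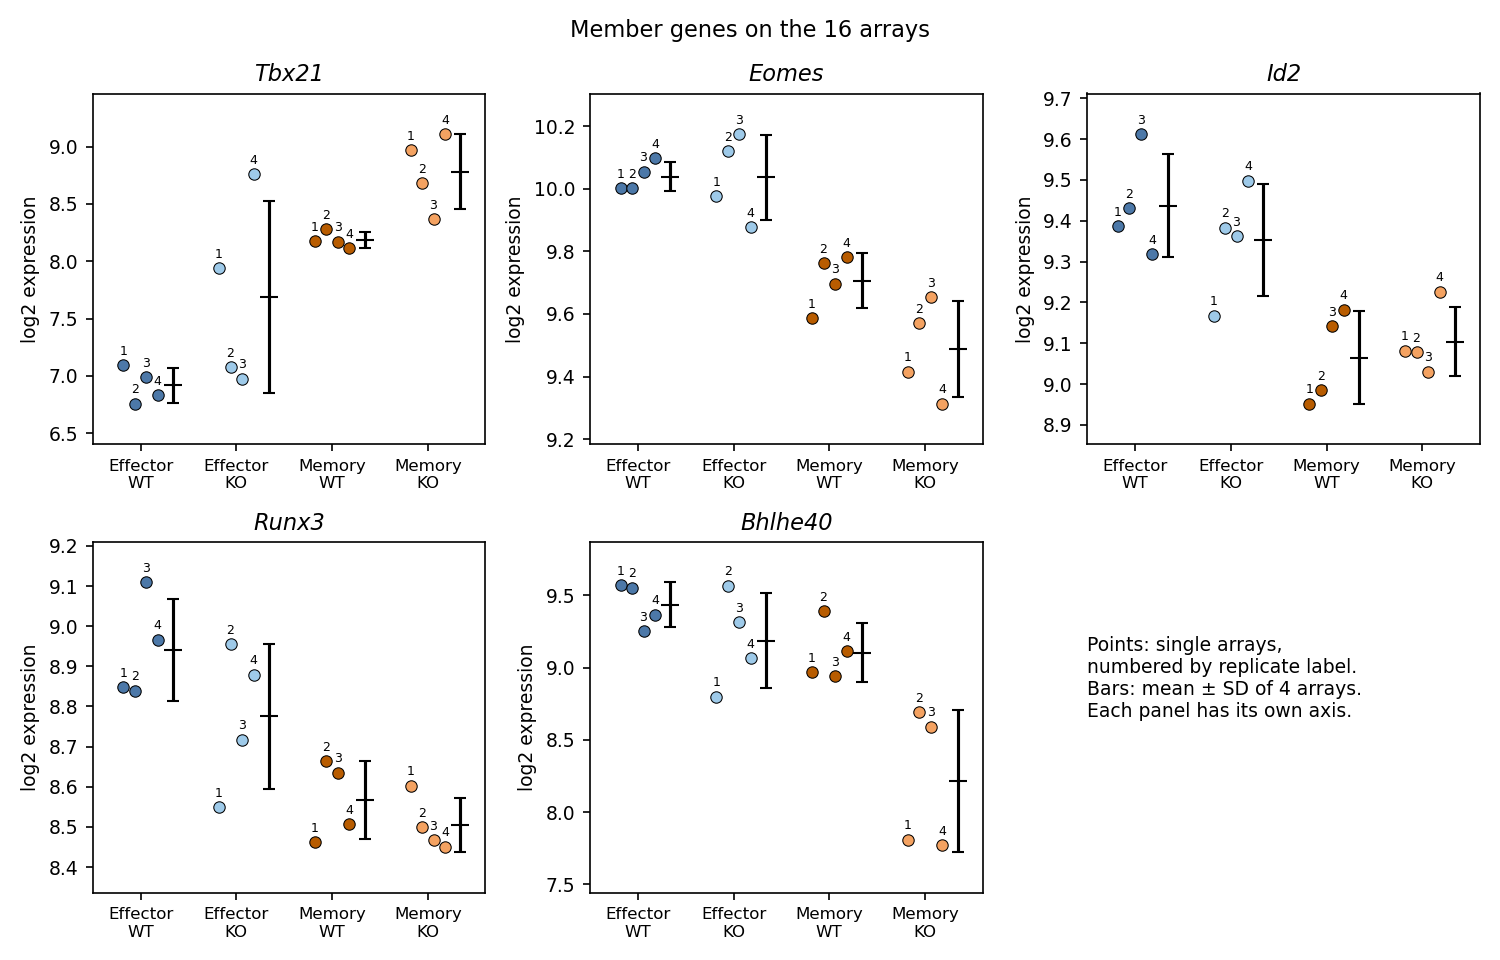
Log2 expression (vertical axes, 1 scale per panel) of the 5 measured genes on each of the 16 arrays; points are arrays numbered by replicate, bars are mean ± SD of 4 arrays. Tbx21 is lowest in Effector WT (6.76 to 7.09) and highest in Memory KO (8.37 to 9.11). Eomes has its lowest mean in Memory KO (9.49), while its means in Effector WT and Effector KO are both 10.04. Effector KO 1 and 4 lie apart from Effector KO 2 and 3 in Tbx21.

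Id2, on chromosome 12 (25093799 to 25096092), was at 9.39, 9.43, 9.61 and 9.32 in Effector WT and 8.95, 8.99, 9.14 and 9.18 in Memory WT. The groups did not overlap, and the difference of 0.37 ± 0.10 passed narrowly (limma, adjusted p = 0.0456). The call was lost in 12 of the 16 fits that left out 1 array, all but those without Effector KO 1, Effector KO 4, Memory KO 4 or Memory WT 4, with adjusted p of up to 0.156. In KO chimeras Id2 was at 9.168 to 9.498 in effector and 9.03 to 9.23 in memory cells, an overlap, with a difference of 0.25 ± 0.10 (limma, adjusted p = 0.141).

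Runx3, on chromosome 4 (135120645 to 135177990), was at 8.84 to 9.11 in Effector WT and 8.46 to 8.66 in Memory WT, without overlap. Its difference of 0.37 ± 0.10 was as large as that of Id2 and just missed the threshold (limma, adjusted p = 0.0531). It passed in 3 of the 16 fits that left out 1 array, without Effector KO 1 (0.0349), Effector KO 2 (0.048) or Effector KO 4 (0.0399). Those arrays are not in the WT comparison, so leaving them out kept the difference at 0.37. In the other fits that left out 1 array the limma adjusted p was up to 0.177. In KO chimeras the difference was 0.27 ± 0.10 (limma, adjusted p = 0.121), with 8.55 to 8.95 in effector and 8.45 to 8.60 in memory cells.

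Bhlhe40, on chromosome 6 (108660629 to 108666925), passed between the subsets in KO chimeras and not in WT chimeras. It was at 8.80, 9.57, 9.31 and 9.06 in Effector KO and 7.81, 8.69, 8.59 and 7.77 in Memory KO. The lowest effector array was just above the highest memory array, and the difference of 0.97 ± 0.21 (1.96-fold) passed (limma, adjusted p = 0.00861). In WT chimeras the difference was 0.33 ± 0.21 (limma, adjusted p = 0.537). The difference of differences was 0.64 ± 0.29 and did not pass (limma, adjusted p = 0.841). The Bhlhe40 call was lost in a fit of the KO arrays alone (adjusted p = 0.0772). Effector and memory arrays did not overlap for 4 of the 5 members in WT, where 13.2% of all genes did not, and for 2 of 5 in KO, where 10.2% of all genes did not.

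Markers of other spleen cells also moved with the subset. B and CLL cell markers were lower in effector WT cells in 10 of 11 measured genes, 9 past the threshold, with a mean of the list of 4.25 to 4.42 per array in Effector WT and 5.35 to 6.16 in Memory WT. In KO chimeras 10 of 11 were lower and 3 passed, with 4.26 to 4.63 in Effector KO and 4.93 to 5.40 in Memory KO. Of 5 measured NK and innate lymphoid genes, 2 fell in effector WT cells (Fcer1g by 1.85 and Tyrobp by 1.66) and 3 in effector KO cells, Klrb1c being the third. Their mean was 5.29 to 5.72 in Effector WT and 6.37 to 6.66 in Memory WT, and 5.59 to 5.79 in Effector KO and 6.47 to 6.73 in Memory KO. Ncr1, which defines NK cells, exceeded the array's median on 1 array of 16, with 3.36 to 3.69 in Effector WT and 3.48 to 4.16 in Memory WT. NK cells are known to express Tbx21, and the part of other cells in the Tbx21 difference was not tested. In such bulk samples a smaller share of cells with a transcript and less of it per cell cannot be told apart.

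**Figure D2:**
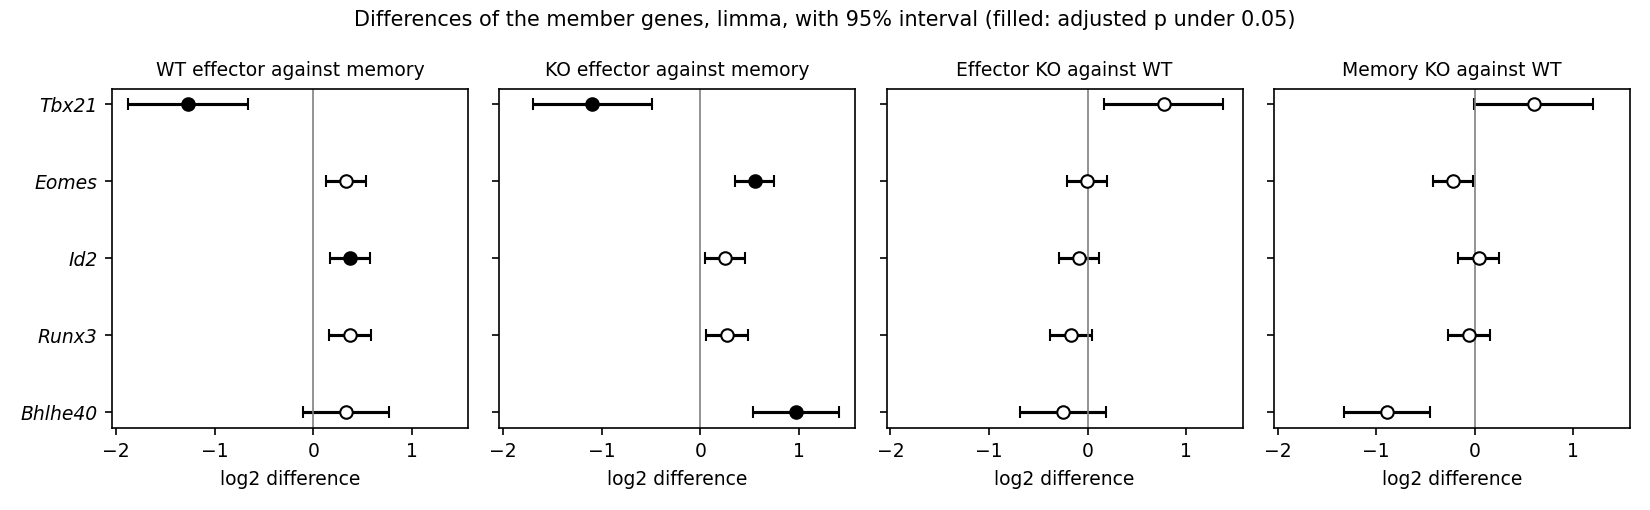
Log2 differences (horizontal axes) of the 5 members in 4 comparisons, with 95% intervals from limma; filled points passed an adjusted p under 0.05. Only Tbx21 lies to the left of 0 in both effector against memory panels, at -1.27 and -1.10, and the 2 KO against WT panels hold 0 filled points.

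The comparison of KO with WT within a subset asks what loss of Il4i1 in marrow-derived cells does to these regulators. No member passed in either subset. In effector cells 0 of 5 passed in limma, where 0.0541% of all genes passed (0.0361% higher, 0.018% lower). An unadjusted p under 0.05 was found there for 1 member (Tbx21) and for 2067 of the 22180 genes. In memory cells 0 of 5 passed, where 0.113% of all genes passed (0.0361% higher, 0.0766% lower). Here 2 members (Bhlhe40 and Eomes) and 2500 of the 22180 genes had an unadjusted p under 0.05. Per gene, the difference between the subsets in the KO effect was past the threshold for 0 of 5 members and 0% of all genes. For that difference 1 member (Bhlhe40) and 1296 of the 22180 genes had an unadjusted p under 0.05.

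Tbx21 was higher in KO in both subsets without passing. In effector cells its difference was 0.77 ± 0.29 (limma, adjusted p = 0.472, 95% interval 0.17 to 1.38), and it rests on 2 arrays: Effector KO 1 and 4 read 7.94 and 8.76, while Effector KO 2 and 3 read 7.07 and 6.97, within the WT range of 6.76 to 7.09. The difference was 0.41 without Effector KO 4 and 0.36 with arrays weighted by quality. In memory cells the difference was 0.60 ± 0.29 (limma, adjusted p = 0.447), and all 4 KO arrays (8.37 to 9.11) lay above all 4 WT arrays (8.12 to 8.28). The SD of Tbx21 was 0.84 in Effector KO against 0.15 in Effector WT, and 0.33 in Memory KO against 0.07 in Memory WT. The order of group means was Memory KO (8.78), Memory WT (8.19), Effector KO (7.69) and Effector WT (6.92). Of the neighbours in this order, Effector KO and Effector WT overlapped and so did Memory WT and Effector KO.

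Il7r, the gate gene that is high in memory cells, was also higher in Effector KO. It rose by 1.65 ± 0.25 (limma, adjusted p = 0.0183), with 6.60, 5.43, 5.00 and 5.75 on Effector KO 1 to 4. The 2 arrays with the highest Tbx21 were also those with the highest Il7r, in the other order. The part of sort purity in the Tbx21 values was not tested.

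Eomes did not follow in effector cells, where KO and WT differed by 0.00 ± 0.10 with a 95% interval of -0.20 to 0.20 (limma, adjusted p = 0.997). In memory cells it was at -0.22 ± 0.10 (limma, adjusted p = 0.406), with 3 of the 4 KO arrays below the WT range of 9.59 to 9.78. Memory KO 3, at 9.65, lay within it. The order of group means was Effector WT (10.04), Effector KO (10.04), Memory WT (9.71) and Memory KO (9.49), in which Effector KO and Memory WT were the neighbours that did not overlap.

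Bhlhe40 had the largest KO difference in memory cells among the 5 members. It was at 7.81, 8.69, 8.59 and 7.77 on Memory KO 1 to 4 and at 8.97, 9.39, 8.94 and 9.11 on Memory WT 1 to 4, without overlap. The difference was -0.89 ± 0.21 (limma, adjusted p = 0.122, 95% interval -1.33 to -0.45). Of the 16 fits that left out 1 array it passed in 1, without Memory KO 3 (-1.01, adjusted p = 0.0334). In that fit 249 of all genes passed, against 25 in the main fit. In the other fits that left out 1 array the limma adjusted p was up to 0.359. Groups did not overlap for 2 of 5 members here, Tbx21 and Bhlhe40, against 6.49% of all genes, and for 0 of 5 in effector cells, against 4.65%. Memory KO 1 and 4 were lowest for Bhlhe40 and highest for Tbx21. Id2 and Runx3 had small differences, with memory values of 0.04 (95% interval -0.17 to 0.24) and -0.06 (-0.27 to 0.15) and effector values of -0.08 (-0.29 to 0.12) and -0.17 (-0.38 to 0.05). The means of Id2 were 9.44 ± 0.13 (SD) in Effector WT, 9.35 ± 0.14 in Effector KO, 9.10 ± 0.08 in Memory KO and 9.07 ± 0.11 in Memory WT, and all neighbours in this order overlapped. So did those of Runx3, with 8.94 ± 0.13 in Effector WT, 8.78 ± 0.18 in Effector KO, 8.57 ± 0.10 in Memory WT and 8.505 ± 0.068 in Memory KO. For Bhlhe40 the means were 9.44 ± 0.15 in Effector WT, 9.19 ± 0.33 in Effector KO, 9.10 ± 0.21 in Memory WT and 8.22 ± 0.49 in Memory KO, and of the neighbours Memory WT and Memory KO did not overlap. B and CLL cell markers were lower in memory KO in 10 of 11 genes, with Cd22 past the threshold, and their mean was 4.93 to 5.40 in Memory KO and 5.35 to 6.16 in Memory WT. Their part in the memory KO values was not tested.

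The balance of Tbx21 to Eomes was taken on each array as log2 Tbx21 minus log2 Eomes. Its zero point depends on the 2 probe sets and has no meaning as a ratio of levels, so only shifts between groups are read. The balance was -2.91, -3.25, -3.06 and -3.27 in Effector WT and -1.41, -1.48, -1.52 and -1.67 in Memory WT, a shift of -1.60 or 3.03-fold away from Tbx21 in effector cells. The groups did not overlap, and the exact permutation p was 0.0286, two-sided, the smallest that 4 against 4 arrays can give. Adjusted over the 5 comparisons of the balance the exact p is 0.0714.

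In KO chimeras the balance was -2.04, -3.05, -3.20 and -1.12 in effector and -0.45, -0.89, -1.29 and -0.20 in memory cells. The shift between subsets was -1.64 (exact permutation p = 0.0571, adjusted 0.0952), and -2.06 without Effector KO 4 (exact permutation p = 0.0286, adjusted 0.0476).

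Memory KO cells stood further towards Tbx21 than Memory WT cells on all 4 arrays. The shift was 0.82 (means -0.71, SD 0.48, and -1.52, SD 0.11, n = 4 and 4), with an exact permutation p of 0.0286 and 0.0714 adjusted over the 5 comparisons. In effector cells the shift was 0.77 (means -2.35, SD 0.97, and -3.12, SD 0.17), with Effector KO 2 and 3 inside the WT range, and an exact permutation p of 0.2. These shifts differed between the subsets by -0.04 (exact permutation p = 0.951 over 4900 arrangements). No balance comparison passed after adjustment. A comparison of 4 against 4 arrays cannot give an exact p under 0.0286, so none could pass alone after adjustment over 5, whatever its size. The memory KO shift and the WT subset shift were both at that smallest exact permutation p. Without Effector KO 4 the adjusted exact p was 0.0476 for the memory KO shift and for both subset shifts. The memory KO shift and the WT subset shift do not use that array, and their unadjusted exact permutation p stayed at 0.0286. For these shifts only the adjustment over the 5 comparisons changed.

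In both KO groups the order of the 4 arrays by Eomes was the reverse of their order by Tbx21, and in neither WT group was it so. Over the 8 memory arrays Pearson's r was -0.91 (exact permutation p = 0.0026, adjusted over 2 relations 0.0051) and Spearman's rho -0.88 (exact permutation p = 0.0072, adjusted 0.0145). Without Memory KO 1 and 4, the arrays farthest from the median of Tbx21, r was -0.59. Over the 8 effector arrays r was -0.76 (exact permutation p = 0.0266, adjusted 0.0266) and rho -0.64 (exact permutation p = 0.0962, adjusted 0.0962), and r was 0.18 without Effector KO 1 and 4, so the effector relation rests on those arrays. Each set of 8 holds 4 KO and 4 WT arrays, so group and array differences are mixed in these values. For deviations from the group means r was -0.82 in memory and -0.93 in effector cells. Within the 4 KO arrays r was -0.98 in memory and -0.99 in effector cells. Within the 4 WT arrays it was 0.10 in memory and -0.22 in effector cells. These values are given as descriptions. The WT arrays span a narrow range of Tbx21 (8.12 to 8.28 in memory, 6.76 to 7.09 in effector cells).

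**Figure D3:**
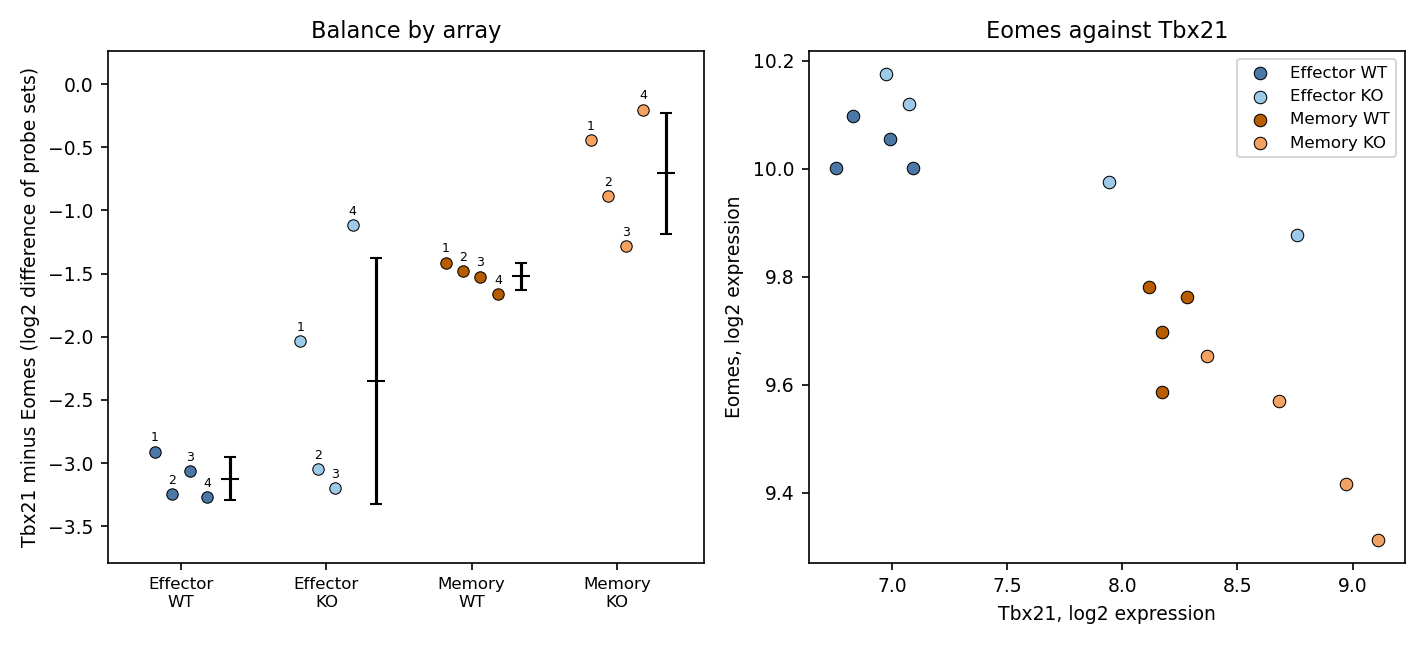
Left, Tbx21 minus Eomes (log2 difference of the 2 probe sets) on each array, with mean ± SD of 4 arrays; right, Eomes against Tbx21, both log2 expression, coloured by group. Group means run from -3.12 in Effector WT to -0.71 in Memory KO, and the 2 KO groups are spread more widely than the WT groups.

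Genes with a pattern most like each member were taken by Pearson's r over the 16 arrays after subtracting the mean of each subset. For Tbx21 these were Cpne3 (r = 0.946), Galnt10 (0.94) and Gzmm, a granzyme (0.937), and r was 0.86 to 0.885 for them without Effector KO 4. Gzmm was at 8.09 to 9.21 in Memory KO, 7.68 to 8.13 in Memory WT, 5.75 to 8.05 in Effector KO and 5.24 to 5.72 in Effector WT. For Bhlhe40 the closest genes were Pdcd1 (r = 0.968), which encodes the checkpoint receptor PD-1, Tox (0.965), a regulator of T cell exhaustion, and Crmp1 (0.954). Pdcd1 had means of 10.35 in Effector WT, 9.72 in Effector KO, 9.71 in Memory WT and 8.004 in Memory KO. On Memory KO 1 to 4 it was at 7.12, 9.25, 8.65 and 6.99, so the arrays lowest in Bhlhe40 were also lowest in Pdcd1.

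For Eomes the closest genes were Rasa1 (r = 0.933), which encodes a GTPase activator of Ras, Nsmaf (0.905) and Baz1a (0.894). For Id2 they were Hcst (0.833), which encodes the adaptor DAP10, Clec2m (0.829) and She (0.806), and for Runx3 they were Rab40b (0.848), Med13 (0.845) and Kmt2e (0.821). She and Rab40b are dim, exceeding the median on 0 and 1 arrays. These correlations are over arrays that share the KO and WT contrast and are given as descriptions.

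Target genes that T-box factors are known to bind in cytotoxic lymphocytes were read as a list of 14, all measured. In WT chimeras 2 rose in effector cells (Fasl by 0.70 ± 0.15 and Ccl4 by 0.62 ± 0.13) and 1 fell (Cxcr3, a chemokine receptor gene, -0.68 ± 0.14), with limma adjusted p of 0.0139 to 0.0143. In KO chimeras 7 rose and 1 fell, among them Ccl4 (1.48 ± 0.13), Fasl (1.14 ± 0.15), Ifng (1.72 ± 0.24) and Gzmb (1.13 ± 0.17), and Cxcr3 fell again (-0.56 ± 0.14). Of all genes, 0.92% rose and 2.3% fell past the threshold in WT, and 3.14% rose and 4.3% fell in KO. The median difference of the targets was 0.34 in WT and 0.51 in KO, against 0.01 for all genes in both. In WT 11 and in KO 13 of the 14 were higher in effector cells, where Tbx21 was lower and Eomes read higher. A link of the targets to either factor was not tested.

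In the KO against WT comparisons 0 of 14 passed in effector cells and 2 fell in memory cells, Ifng (-1.34 ± 0.24, limma, adjusted p = 0.0404) and the chemokine gene Ccl4 (-0.81 ± 0.13, adjusted p = 0.0234). The median was 0.02 in effector and -0.16 in memory cells, against 0.01 and 0.02 for all genes. The share of all genes that fell past the threshold in memory cells was 0.0766%. Ifng was at 8.20, 8.70, 9.15 and 7.76 on Memory KO 1 to 4 and 9.54 to 10.38 in Memory WT. Memory KO 4 and 1 were the lowest in Ifng and the highest in Tbx21. Gzma, a granzyme gene, was at 1.75 ± 0.53 in effector cells (limma, adjusted p = 0.442), with 10.21 and 10.80 on Effector KO 1 and 4, and 8.06 and 8.53 on Effector KO 2 and 3.

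**Figure D4:**
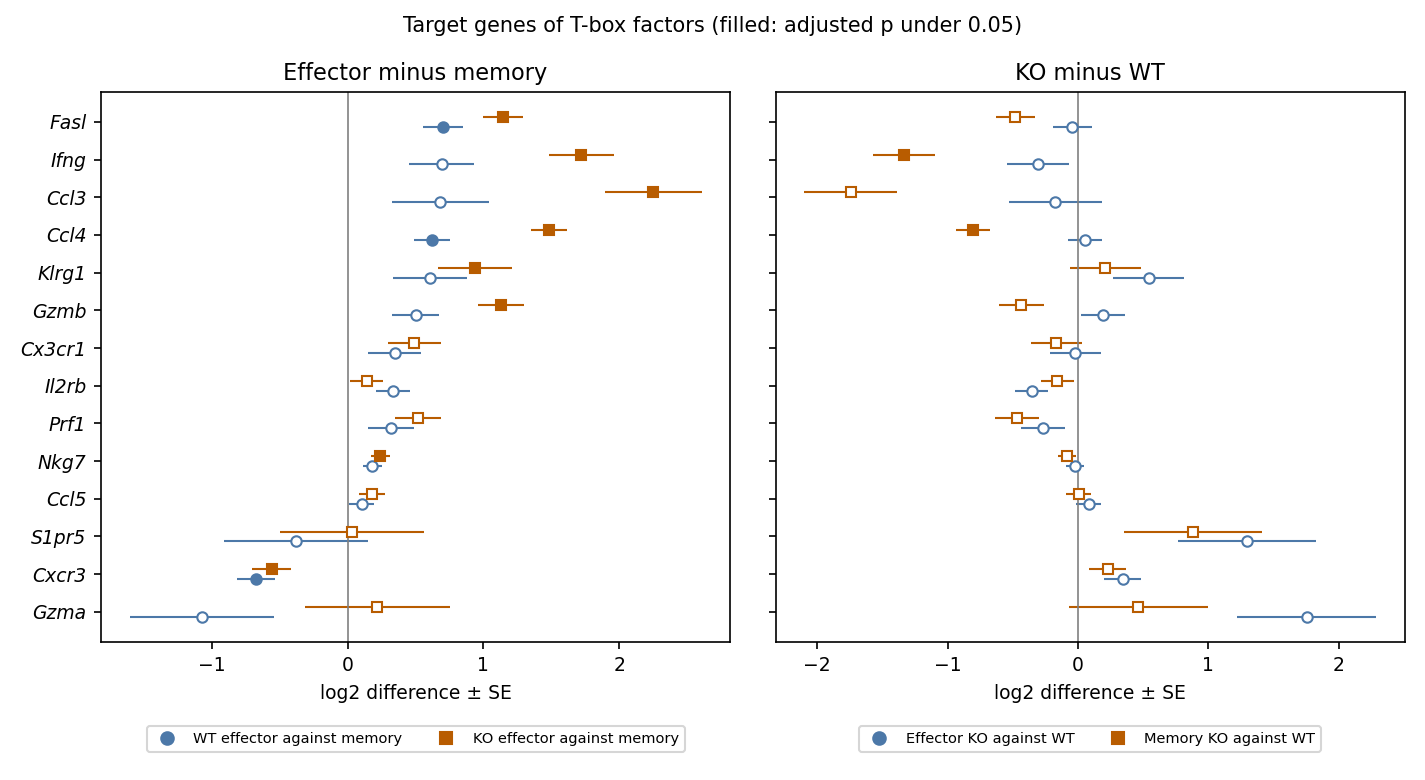
Log2 differences ± SE (horizontal axes) of 14 target genes of T-box factors, left for effector minus memory in WT (circles) and KO (squares) chimeras, right for KO minus WT in effector (circles) and memory cells (squares); filled symbols passed an adjusted p under 0.05. Most targets lie right of 0 on the left, with Cxcr3 on the other side, and Ifng and Ccl4 are the filled symbols on the right.

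Among 12 effector regulators and inputs to Tbx21, 11 were measured. In WT chimeras 2 rose in effector cells, Il12rb1, a chain of the interleukin-12 receptor (0.91 ± 0.13), and Prdm1, which encodes BLIMP-1 (0.79 ± 0.20). Il12rb2, the partner chain, fell by 2.56 (SE 0.24, adjusted p = 2.54e-05), and Ifngr1 fell by 0.69 (SE 0.13). Interleukin-12 and interferon gamma signals are known to induce Tbx21. Il12rb2 was at 6.03 in Memory WT and 3.46 in Effector WT, and its effector signal lay under the median of most arrays, so its fold is uncertain. In KO chimeras 3 rose and 4 fell, the largest being Il12rb2 (-2.37 ± 0.24) and Prdm1 (1.497 ± 0.199). Among all genes, 0.92% rose and 2.3% fell past the threshold in WT, and 3.14% rose and 4.3% fell in KO. In KO against WT 0 of 11 passed in either subset. Prdm1 was nearest in memory cells, at -0.91 ± 0.20 (limma, adjusted p = 0.0887), and in effector cells Rbpj was at -1.22 ± 0.31 (adjusted p = 0.337).

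Of 10 transcription factors of memory and stem-like cells, 9 were measured, and 5 fell and 0 rose in effector cells in each genotype. Among all genes, 2.3% fell and 0.92% rose past the threshold in WT, and 4.3% fell and 3.14% rose in KO. In WT chimeras these were Id3 (-1.85 ± 0.19), the paralogue of Id2 that favours memory cells, Lef1 (-1.04 ± 0.13), Satb1 (-1.66 ± 0.28) and Klf2 (-1.38 ± 0.24), with Bach2 as the fifth. Tcf7 had no single-symbol probe set. The median of the list was -1.02 in WT and -0.81 in KO, against 0.01 for all genes in both. In KO against WT 0 of 9 passed in either subset. There 8 were higher in effector cells (median 0.20) and 7 in memory cells (median 0.34). The medians of all genes were 0.01 and 0.02. Id3 was at 0.99 ± 0.19 in effector cells (limma, adjusted p = 0.119).

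Family relatives and binding partners of the members numbered 13, of which 12 were measured. In effector cells 2 fell in WT, Id3 and the E protein gene Tcf12 (-0.37 ± 0.10, limma, adjusted p = 0.0473), and 3 in KO, where Mga, which carries a T-box domain, was the other (-0.58 ± 0.14, adjusted p = 0.0156). The share of all genes that fell past the threshold was 2.3% in WT and 4.3% in KO. Id2 and Id3 thus differed between the subsets in opposite directions in WT chimeras, Id2 higher and Id3 lower in effector cells. In KO against WT 0 of 12 passed in either subset, and Runx1, the paralogue of Runx3, was at 0.43 ± 0.16 in effector cells (limma, adjusted p = 0.472).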

How the data were processed

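Per the labels' protocols, RNA was extracted by RNeasy Micro Kit and labelled with the GeneChip WT Pico kit from 1 ng. The authors deposited 1 value per probe set for 41345 probe sets in 16 samples. The deposited unit was read as log2 from the range of 0.7365 to 14.0453; the sources used here do not state the log base or normalization. Array medians were 4.1169 to 4.2214. Of the probe sets, 23521 carried 1 symbol, 1814 several and 16010 were not listed; for genes with several, the probe set with the highest mean was taken.

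limma 3.58.1 in R 4.3.3 fitted 4 group means to 16 arrays (12 residual degrees of freedom, prior 4.23), with Benjamini-Hochberg adjustment over 22180 genes, two-sided. The balance had exact permutation tests in Python 3.11.15. The fit was checked on simulated data.

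Members, lists and tests were chosen with earlier results of these data known. The fixed rule named the 6 members, per related list and comparison up to 4 genes that passed by smallest p (up to 2 where none passed), and the 3 genes most like each member. Sort genes and cell markers (Cd22, Ncr1, Fcer1g, Tyrobp, Klrb1c), and Cxcr3 in KO and Bach2 in WT effector against memory, were named after their values were seen. Marker lists of CD4 and regulatory T, myeloid, and erythroid and platelet genes had 1, 2 and 0 genes called in effector against memory at most, and 0 in KO against WT. Alternatives were other scalings, filters, moderation, array weights, fewer arrays and a replicate block. A relation of Tbx21 with Zeb2 was planned and is not analysed here, as Zeb2 had no single-symbol probe set. Sequences are from RefSeq, GRCm38.p6.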

Additional observations from a re-analysis of the deposited data

How the results depend on the processing

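All 5 called differences of members kept their direction in each of 120 alternative fits, and those calls were lost in 25 of them. In effector against memory in WT, the number of members called was 2, and 1 with quantile normalization, 4 among genes above the array median on at least 4 arrays, 4 with a trended robust prior, 4 with array weights, 4 in a fit of the 2 groups alone and 0 to 4 when 1 array was left out; all genes called were 715, 1644 with array weights, 1320 in the 2 groups alone and 359 to 1037 with 1 array left out. In KO it was 3, and 1 in the 2 groups alone and 2 to 3 with 1 array left out; all genes called were 1649, 600 in the 2 groups alone and 961 to 2044 with 1 array left out. In memory KO against WT, members called were 0, and 0 to 1 with 1 array left out; all genes called were 25, 38 with median-centred arrays, 42 with array weights, 7 in the 2 groups alone and 11 to 249 with 1 array left out. In effector KO against WT all genes called were 12, 4 in the 2 groups alone and 4 to 42 with 1 array left out, and for the difference of differences 0, and 0 to 5. Differences near 0 changed sign: Eomes in effector KO against WT was 0.0011 with median-centred arrays, 0.026 with quantile normalization, 0.064 with array weights and -0.048 to 0.052 with 1 array left out; Id2 in memory KO against WT ranged from -0.0016 to 0.078; the difference of differences of Tbx21 was -0.23 with array weights and ranged from -0.18 to 0.41, and that of the balance from -0.45 to 0.24. With 1 array left out the balance shift was 0.65 to 1.01 in memory KO against WT, -1.67 to -1.55 between subsets in WT and -2.06 to -1.36 in KO. The cause of these changes was not tested.

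With the replicate number as a block, 29 genes were called in effector KO against WT, 104 in memory KO against WT with 1 member among them (Bhlhe40, adjusted p = 0.034), and 1 member in effector against memory in WT, where Id2 had an adjusted p of 0.05004. The numbers were not taken to pair the samples, as the labels do not say that they do. Deviations of same-numbered arrays correlated above 0.1 in 8 of 16 pairs (-0.032 to 0.239). Between effector and memory arrays this held for 3 of 4 pairs in WT and 3 of 4 in KO. Between KO and WT it held for 1 of 4 pairs in each subset. Arrays correlated best with their own number in 8 of 8 cases between Effector WT and Memory WT, and in 6 of 8 between Effector KO and Memory KO. Between KO and WT it was 5 of 8 in effector and 3 of 8 in memory cells. These values are a hint from the data and not from the labels.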

Other observations

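Spread within the KO groups followed the replicate number in part. Arrays 1 and 4 had the highest Tbx21 of both KO groups (7.94 and 8.76 in Effector KO, 8.97 and 9.11 in Memory KO), the lowest Eomes of both (9.98 and 9.88, 9.42 and 9.31), and the lowest Bhlhe40 of both (8.80 and 9.06, 7.81 and 7.77). The labels do not say whether equal numbers mark the same mouse. The same arrays had the highest Gzma in both KO groups (10.21 and 10.80, 10.07 and 9.34). No WT array reached a Tbx21 of 8.37, the lowest Memory KO value.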
